A study of Mus musculus with 5 samples.

Results

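The GATA factor genes are the 6 genes of the GATA family of zinc finger transcription factors, Gata1 to Gata6, together with Zfpm1 and Zfpm2, which encode the FOG proteins that bind GATA factors as cofactors. The 8 genes were chosen by name among 21787 protein-coding genes, and the open chromatin around each of them was followed through blood cell development. DNaseI hypersensitive sites (DHSs), where chromatin is open to cutting by the nuclease DNase I, were listed at 5 stages on the way from ES cells to blood. All cells came from mouse ES cells of strain 129 in which GFP is driven by Brachyury (Bry), a gene of early mesoderm. MES is mesoderm sorted as Bry.GFP+ and FLK1-, and HB the hemangioblast stage, sorted as Bry.GFP+ and FLK1+. HE is the hemogenic endothelium, labelled as Bry.GFP+ and Tie2+/Ckit+/CD41-. HP, blood progenitors, were sorted on CD41, and MAC, macrophages, on CD11b. Each stage was 1 list of sites and the label of MAC names a pair of replicates, so no spread between replicates can be given and no difference between stages was tested. A site was given to a gene if it came within 1 kb of any of its transcription start sites (TSS), in which case it is called a promoter site, or if it lay inside the gene or up to 100 kb from its TSS and no other protein-coding gene was nearer. Of 135173 sites in the 5 lists, 129 were given to the 8 genes.

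GATA factors recognise short DNA sequences with the core GATA. In blood they act in a fixed order, with GATA2 in hemogenic endothelium and progenitors followed by GATA1 in red cells and megakaryocytes, and they often bind beside TAL1, which reads an E-box (CANNTG), so that an E-box a few bases from a GATA sequence marks a place where both can sit in a complex with LMO2 and LDB1. GATA3 is the factor of T cells, and GATA4, GATA5 and GATA6 act in heart and endoderm. ZFPM1 (FOG1) works with GATA1 and ZFPM2 (FOG2) with GATA4.

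The genes used for sorting followed the sort at some promoters and not at others. A promoter site of Tek (Tie2) was listed in HE alone and of Itgam (CD11b) in MAC alone, as was that of Csf1r, a macrophage gene that was not used for sorting. T (Brachyury) had one in MES and HB and none in HE, although HE is labelled Bry.GFP+. Kdr (FLK1) had one in every list, FLK1- MES included, Kit in all lists but MAC, and Itga2b (CD41) in CD41- HE as well as HP. From MES to MAC, a promoter site was listed for 3, 2, 1, 0 and 0 of 3 pluripotent markers, for 1, 1, 2, 2 and 1 of 4 erythroid markers and for 1, 2, 2, 2 and 0 of 4 fibroblast markers, and the part of such cells in the results was not tested. The lists differed in length, from 17734 sites in HP to 37456 in MAC, and in the median width of a site, from 600 bp in MAC to 1200 bp in HE. They hold no read counts, so the depth behind them is unknown. The absence of a site means that none was listed, and a site open in a part of the cells cannot be told apart from one that is weakly open in all of them.

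Some of the sequences around the sites of these genes that hold an E-box and a GATA sequence close together, or several GATA sequences, are shown here because the results below turn on them. They were read from the reference genome GRCm38.p6, which has the chromosomes of mm10, the build of the deposited sites, and are written 5′ to 3′ on the strand of the gene. Capitals mark the GATA sequences searched (AGATAA or AGATAG, and TGATAA or TGATAG, on either strand) and, where an E-box lay 7 to 9 bases from one, the whole stretch from the E-box to the GATA sequence. Each is named by its gene and by the distance of the region's centre from the TSS, plus for downstream and minus for upstream. The TSS of reference was the 5′-most TSS of a curated mRNA of the gene.
Gata2 +9.4 kb: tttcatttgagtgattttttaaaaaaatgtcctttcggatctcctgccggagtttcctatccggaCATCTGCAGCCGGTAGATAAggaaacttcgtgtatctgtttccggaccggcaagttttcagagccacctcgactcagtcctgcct
Gata2 -3.9 kb: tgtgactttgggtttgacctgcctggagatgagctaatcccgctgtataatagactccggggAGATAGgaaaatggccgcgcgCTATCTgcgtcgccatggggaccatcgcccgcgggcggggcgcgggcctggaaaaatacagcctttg
Gata4 -10.7 kb: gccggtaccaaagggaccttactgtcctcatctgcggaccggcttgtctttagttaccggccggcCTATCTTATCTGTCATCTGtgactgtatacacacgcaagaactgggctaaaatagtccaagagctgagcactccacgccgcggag
Zfpm1 +31.6 kb: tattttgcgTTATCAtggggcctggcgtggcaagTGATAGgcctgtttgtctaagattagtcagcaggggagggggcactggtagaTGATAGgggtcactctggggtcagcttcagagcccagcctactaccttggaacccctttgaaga
Zfpm2 +127.0 kb: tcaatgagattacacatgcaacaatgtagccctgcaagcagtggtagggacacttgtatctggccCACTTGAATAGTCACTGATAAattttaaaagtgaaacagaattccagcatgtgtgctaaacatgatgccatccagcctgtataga
They lie at chr6:88203120-88203269 (+), chr6:88189740-88189889 (+), chr14:63256116-63256265 (-), chr8:122313633-122313782 (+) and chr15:40781970-40782119 (+), in that order. The Gata2 -3.9 kb sequence is intergenic and the others are intronic.

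To describe how the 8 genes compare, their sites were counted in each list. All members but Gata1 had sites in at least 1 list. Promoter sites were listed for 6, 6, 7, 4 and 3 of the 8 genes from MES to MAC. Among protein-coding genes at large, a promoter site was listed for 55.5%, 57.1%, 59.8%, 48.6% and 48.7% in the same order. Thus the members with an open promoter were fewest in HP and MAC, the stages in which the share over all genes was also lowest. Gata3, Gata4 and Zfpm1 had a promoter site in all 5 lists, a pattern shared by 42% of all protein-coding genes. Gata2 had one in all lists but MAC (3.81% of all genes), Gata5 and Gata6 in MES, HB and HE (3.84%), and Zfpm2 in HE only (3.02%).

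**Figure D1:**
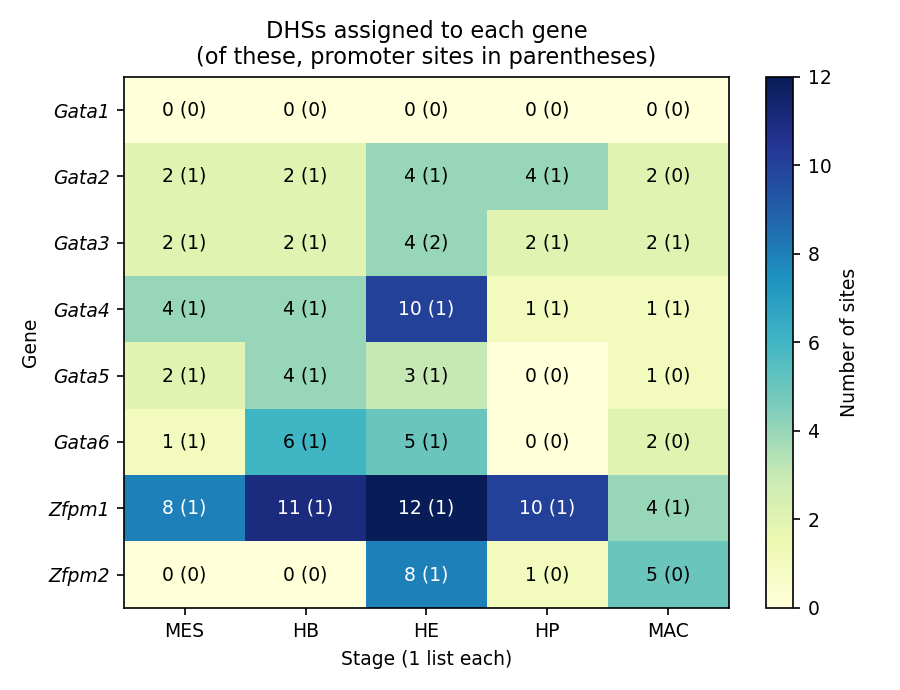
Number of DHSs assigned to each of the 8 genes (rows) in each of the 5 lists (columns), with promoter sites in parentheses and the colour giving the number of sites. HE holds the highest count for Gata4 (10), Zfpm1 (12) and Zfpm2 (8), HB that for Gata5 (4) and Gata6 (6), and Gata1 has 0 throughout.

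Counting all sites, the 8 genes had 19, 29, 46, 18 and 17 from MES to MAC. Per 10000 sites of a list this made 8.66, 11.7, 13.8, 10.1 and 4.54. The HE list was thus highest and the MAC list lowest also when its length was taken into account. HE sites were also the widest, and with each list reduced to its widest 17734 sites, the number in the shortest list, the 8 genes had 16, 22, 26, 18 and 5 sites from MES to MAC. Summed over the 5 lists, a protein-coding gene had a median of 5 sites and an upper quartile of 8. Zfpm1 had 45 sites, more than 99.7% of genes, and Gata4 had 20, more than 95.6%. Gata2, Gata6 and Zfpm2 each had 14 (more than 89.6%), Gata3 had 12 and Gata5 10.

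The stretch of genome in which a site would be given to a gene is long for some of these genes and short for others. It came to 550 kb for Zfpm2, 201 kb for Gata6, 123 kb for Gata3 and about as much for Gata4, 89 kb for Gata5, 70 kb for Zfpm1, 65 kb for Gata2 and 36 kb for Gata1. Per 100 kb of this stretch Zfpm1 had 64.3 sites over the 5 lists and Zfpm2 had 2.55, against a median of 8.6 over protein-coding genes. Gata2 had 21.5, Gata4 16, Gata5 11.2, Gata3 9.76 and Gata6 6.97. By density Zfpm1 therefore stood far above the other members, and Gata6 and Zfpm2 lay below the median gene although each had as many sites as Gata2.

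To follow single elements through the stages, each site was set to 500 bp around its middle and windows that overlapped by the minimum set in the study were merged, which gave 70 regions for the 8 genes and 68846 in all. A region is called open in a stage whose window it holds. Of the 70 regions, 39 were open in 1 stage (55.7%, against 60.2% of all regions). A further 17 were open in 2, 5 in 3, 4 in 4 and 5 in all 5 stages. Regions open in HE only numbered 24, or 34.3% of the members' regions, against 17.1% of all regions. Regions open in MAC only numbered 4 (5.71%), against 31% of all regions. Regions open in HB only numbered 7 (10%, against 5.65% of all), those in MES only 2 (2.86%, against 4.1%) and those in HP only 2 (2.86%, against 2.26%). The 5 regions open in all stages were 7.14% of the members' regions, against 13.2% of all. Most HE-only regions belonged to Gata4 (8 of its 12 regions), Zfpm2 (5 of 11) and Zfpm1 (4 of 22). Gata3 had 3 of 5, Gata6 2 of 10, and Gata2 and Gata5 1 of 5 each. When the deposited intervals were merged in place of windows, 19 of 63 regions were HE only (30.2%, against 15.4% of all). With every list reduced to its widest 17734 sites, they were 11 of 44 (25%, against 10.6% of all).

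**Figure D2:**
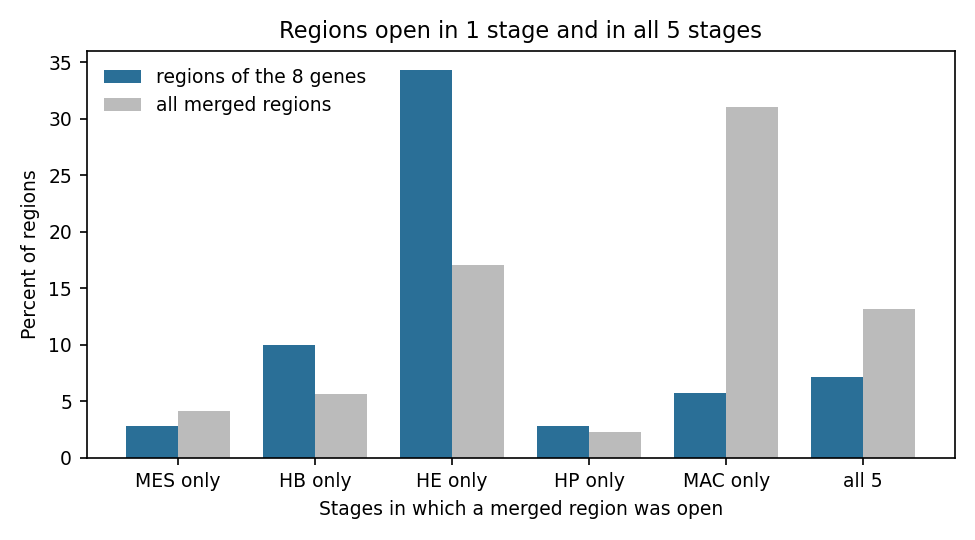
Percent of merged regions open in a single stage (MES, HB, HE, HP or MAC only) or in all 5 stages, for the 70 regions of the 8 genes (blue) and all 68846 regions (grey). HE-only regions make up 34.3% of the members' regions and 17.1% of all, and MAC-only regions 5.71% and 31%.

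From stage to stage, 17 of the 19 regions open in MES were also open in HB (89.5%, against 81.5% of all regions open in MES). Of 29 regions open in HB, 14 were open in HE (48.3%, against 63.7%). Of the 46 regions open in HE, 32 had not been open in HB, against 17562 of 33305 over all regions. Of 46 regions open in HE, 12 were open in HP (26.1%, against 42.9%) and 34 were not. Of 18 regions open in HP, 8 were open in MAC (44.4%, against 66.2%). A region whose sites are centred differently in 2 stages counts here as closed even where the deposited intervals overlap. Counting a region as kept when a deposited interval of the next stage overlapped it, a comparison added after seeing the data, 18 of the 29 HB regions were kept in HE (62.1%, against 69.1% of all), 14 of the 46 HE regions in HP (30.4%, against 44.5%) and 8 of the 18 HP regions in MAC (44.4%, against 67.1%). The share kept by the members was below that of all regions at each of these steps by either count, by less from HB to HE when intervals were compared, and the difference was not tested. The 34 regions that were open in HE and not in HP belonged mainly to Gata4 (9), Zfpm2 (7), Zfpm1 (6) and Gata6 (5). The members differed at this step. Gata2 kept 3 of its 4 HE regions (75%) and Zfpm1 6 of 12 (50%), above the 42.9% of all regions. Gata3 kept 1 of 4, Gata4 1 of 10, Gata5 0 of 3, Gata6 0 of 5 and Zfpm2 1 of 8.

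Gata2, the GATA factor of hemogenic endothelium and blood progenitors, lies on the plus strand of chromosome 6 at 88193891 to 88207032 and has 2 annotated TSS, at 88193891 and 88198664, both of curated mRNAs. It had 2, 2, 4, 4 and 2 sites from MES to MAC, which fell into 5 regions. In HP 97.7% of protein-coding genes had fewer sites. No site was listed within 1 kb of the 5′-most TSS. The promoter region (chr6:88198298-88199108) covered the second TSS and held sites of 700, 900, 1900 and 800 bp in MES, HB, HE and HP, with none in MAC. The HE site was wider than 93.4% of its list, the other 3 narrower than the median of theirs or equal to it.

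The intronic region of Gata2 at +9.4 kb (chr6:88203007-88203599) was open from HE onward and in neither MES nor HB. Its sites were 1700, 1200 and 600 bp wide in these stages. This intron holds an enhancer that is known to be needed for Gata2 expression in hemogenic endothelium, and its known E-box and GATA sequence is the stretch in capitals shown for Gata2 +9.4 kb, with the E-box CATCTG and the GATA sequence AGATAA separated by 8 bases. An E-box 7 to 9 bases from a GATA sequence was found in 1.73% of all merged regions. Of the 5 regions of Gata2, this was the only region that was absent in the mesodermal stages and listed in 3 later ones.

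The other regions of Gata2 lay upstream. The region at -3.9 kb (chr6:88189500-88190558) was open in all 5 stages, with sites of 800, 1500, 1800, 900 and 600 bp from MES to MAC. It was CpG-rich, meaning here that GC made up at least 0.5 of its bases and that CpG reached at least 0.6 of the number expected, and held AGATAG and its reverse complement CTATCT within the sequence shown above. Chromatin at this place was thus listed as open also in MAC, where the promoter was not. A region at -6.8 kb (chr6:88186807-88187306) was open in HP only, with a site of 400 bp that was wider than just 3.82% of the HP list. Another at -41.7 kb (chr6:88151959-88152458) was open in HE only, with a site of 600 bp, wider than 3.97% of the HE list. Both stage-only regions of Gata2 thus rested on narrow sites.

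**Figure D3:**
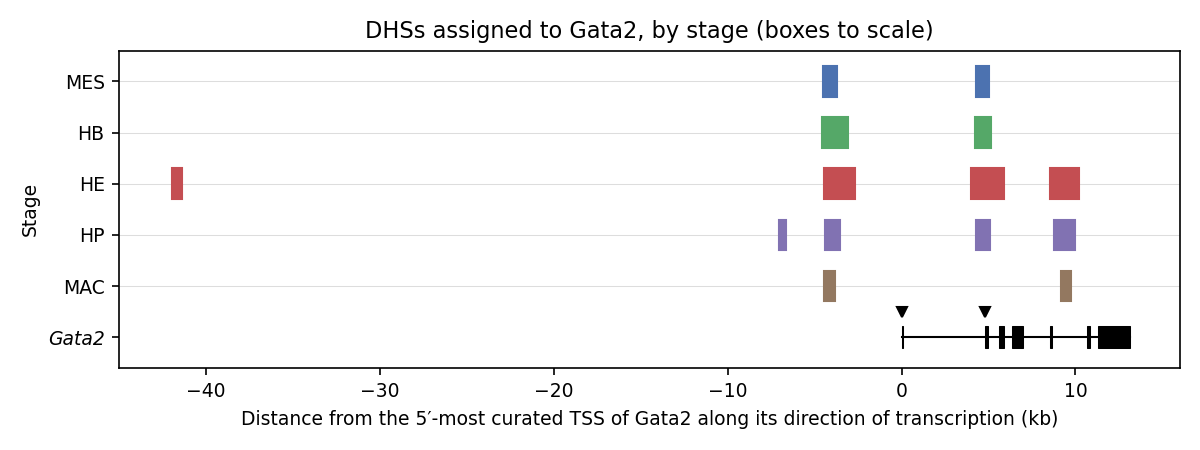
DHSs assigned to Gata2 in the 5 lists (rows), drawn to scale by distance from its 5′-most curated TSS in kb, with exons as black boxes and the 2 TSS as triangles. The site at +9.4 kb is present in HE, HP and MAC, the promoter site at the second TSS in all lists but MAC, and the site at -3.9 kb in all 5.

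A further 11 regions lay within 100 kb of a Gata2 TSS but had another nearest gene or none in reach. Rpn1, the gene 88.6 kb upstream, was nearest to 8 of them, at -87.7 to -52.9 kb from the Gata2 TSS. Among these a region at -77.4 kb (chr6:88116207-88116706) was open in HP only and held 2 GATA sequences in its central 500 bp. Another at -57.5 kb (chr6:88135959-88136779), open in HB, HE and MAC, also held 2. These regions were not counted for Gata2. An enhancer of Gata2 that acts in myeloid progenitors is known far upstream of the gene, toward Rpn1, and which of the listed regions acts on Gata2 was not tested.

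Gata1, the factor of red cells, megakaryocytes and mast cells, lies on the minus strand of chromosome X at 7959260 to 7976663. No site was listed within 1 kb of either of its 2 TSS, inside the gene or nearest to it in any of the 5 lists. No site in any list was also the case for 23.6% of protein-coding genes. Its stretch of 36 kb was the shortest of the members, with Hdac6 11.2 kb away on one side and Glod5 27.5 kb on the other. The closest regions lay at +15.7 kb (chrX:7951913-7952412, HB only) and +19.9 kb (chrX:7947714-7948338, open in all 5 stages), both given to Hdac6, and upstream at -45.4 kb (MES only), given to Glod5. The 250 bases before the curated TSS of Gata1 are shown with those before the second TSS of Gata2, since both genes are blood factors and only the latter had promoter sites. They are RefSeq sequences of GRCm38.p6, at chrX:7967911-7968160 (-) and chr6:88198414-88198663 (+).
Gata1: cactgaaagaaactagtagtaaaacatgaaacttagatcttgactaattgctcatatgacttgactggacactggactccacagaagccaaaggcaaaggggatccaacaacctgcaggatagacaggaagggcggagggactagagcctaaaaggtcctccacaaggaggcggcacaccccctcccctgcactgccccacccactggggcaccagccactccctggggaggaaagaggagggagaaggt
Gata2, second TSS: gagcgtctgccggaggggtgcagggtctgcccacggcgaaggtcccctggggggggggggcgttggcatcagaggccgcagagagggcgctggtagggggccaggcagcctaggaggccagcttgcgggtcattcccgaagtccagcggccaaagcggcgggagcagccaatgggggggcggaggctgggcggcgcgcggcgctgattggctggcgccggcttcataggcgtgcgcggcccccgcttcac
Neither holds any of the 4 GATA sequences, which 26.5% of all 32851 promoters hold in the same 250 bases. The GC content was 54% for Gata1 and 74% for Gata2, and the ratio of observed to expected CpG was 0.11 and 0.74. Of all promoters, 31% were CpG-rich. The same table matched 5 of the 8 genes, and the promoters of Gata3, Gata5, Zfpm1 and both TSS of Gata2 were CpG-rich, with ratios of 0.63 to 0.90. Gata1 was the only matched member without a CpG-rich promoter. The 5′-most TSS of Gata2, with a GC content of 67.2% and a ratio of 0.78, also had no site within 1 kb in any list.

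Promoters of genes that GATA factors regulate in blood were listed as well. Kit is known to be repressed by GATA1 and activated by GATA2. Of 8 such genes (Klf1, Epor, Nfe2, Gfi1b, Itga2b, Pf4, Alas2 and Kit), 3, 4, 6, 6 and 5 had a promoter site from MES to MAC, against 55.5%, 57.1%, 59.8%, 48.6% and 48.7% of all genes. In MES and HB this was below the share over all genes and from HE to MAC above it. Klf1 and Epor had a site in every list, like 42% of all genes, and Alas2 in none. Of 7 partner genes in blood (Tal1, Lmo2, Ldb1, Lyl1, Tcf3, Spi1 and Runx1), 5 had a promoter site in MES, 6 in HB and all 7 in HE, HP and MAC, each time above the share over all genes. Spi1, which encodes PU.1, gained its promoter site in HE.

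Gata3, the factor of T helper cells, also acts in the endocrine, kidney and nervous systems. It lies on the minus strand of chromosome 2 at 9857078 to 9887953 and had 2 sites in each of MES, HB, HP and MAC and 4 in HE. Sites just upstream of the curated TSS were listed at every stage, with widths of 800, 1600, 1700, 1300 and 1000 bp from MES to MAC. The HE site was centred 0.4 kb upstream and those of the other stages 0.8 to 1.1 kb upstream, so the windows fell into 2 regions (chr2:9878770-9879269 for HE and chr2:9879148-9879940 for the other 4 stages) although the deposited intervals overlapped. A region 10.9 kb upstream (chr2:9889220-9889747) was open in all 5 stages, with sites of 800, 800, 1400, 500 and 300 bp from MES to MAC. It came within 1 kb of a TSS that is predicted but not curated, and only through the wider HE site. HE-only regions were found at -3.7 kb (chr2:9882070-9882569) and at +11.2 kb (chr2:9867170-9867669), both in introns and both with sites of 1300 bp. The region at +11.2 kb held 2 GATA sequences and the other 4 regions of Gata3 none. Of the T cell markers Cd3e, Cd3g, Lck and Il7r, none had a promoter site in any list.

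The 3 members that act in heart and endoderm had their sites mainly in MES, HB and HE. Gata4, Gata5 and Gata6 had 4, 2 and 1 sites in MES, 4, 4 and 6 in HB, and 10, 3 and 5 in HE. In HP they had 1, 0 and 0 sites and in MAC 1, 1 and 2. Protein-coding genes had a median of 1 site in each list, and from MES to MAC 36.6%, 35.1%, 31.5%, 43.3% and 36.1% of them had none. The share of all genes with a promoter site was also lower in HP and MAC (48.6% and 48.7%) than in HE (59.8%). Markers of heart and endoderm are given beside the sites of these 3 genes. Of 4 cardiac markers, 1, 1, 3, 1 and 0 had a promoter site from MES to MAC, with Nkx2-5 and Tnnt2 listed in HE only, Hand1 in all lists but MAC and Myh6 in no list. Of 4 endoderm markers, 1, 2, 2, 1 and 0 had a promoter site from MES to MAC, with Hnf4a and Afp at none. Of 7 cardiac and endoderm partner genes (Nkx2-5, Tbx5, Hand2, Mef2c, Nr2f2, Foxa2 and Sox17), 2, 5, 7, 2 and 1 had a promoter site from MES to MAC, and Nkx2-5, Foxa2 and Sox17 are counted in both these genes and the markers. The part of such cells in these sites was not tested.

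Gata4, on the minus strand of chromosome 14 at 63198914 to 63271712, had 12 regions. Its promoter region (chr14:63244958-63245985) at the curated TSS was CpG-rich and open in all 5 stages, with sites of 900, 1500, 1500, 700 and 200 bp from MES to MAC. The MAC site was wider than just 1.2% of the MAC list, and the promoter site was the only Gata4 site in HP and MAC. An intronic region at +5.0 kb (chr14:63239986-63240562) was open in MES, HB and HE, with sites of 1000, 1100 and 900 bp. Regions at -10.7 kb (chr14:63255686-63256312) and -60.9 kb (chr14:63305863-63306385) were open in MES and HB only. The sequence shown for Gata4 -10.7 kb holds an E-box and the GATA sequence AGATAG 7 bases apart, read on the strand opposite to that shown. A second GATA sequence, AGATAA, overlaps AGATAG on the side nearer the E-box. This region was the only CpG-rich region of Gata4 besides the promoter.

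The remaining 8 regions of Gata4 were open in HE only. Upstream of the curated TSS they lay at -52.1 kb (chr14:63297158-63297657), -23.9 kb (chr14:63268908-63269407), -19.6 kb (chr14:63264658-63265157), -6.6 kb (chr14:63251608-63252107) and -2.8 kb (chr14:63247808-63248307). Downstream they lay at +22.7 kb (chr14:63222358-63222857), +30.0 kb (chr14:63215008-63215507) and +37.7 kb (chr14:63207308-63207807). All but the one at -52.1 kb were in introns, since predicted transcripts start as far out as -26.44 kb. The sites were 700 to 1400 bp wide, and those at -52.1 and -2.8 kb were the only ones above the HE median of 1200 bp. Only the regions at -52.1 and -19.6 kb held a GATA sequence. Of the 4 Gata4 regions open in HB, 2 were thus open in HE, where 8 others appeared.

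Gata5, on the minus strand of chromosome 2 at 180325088 to 180335503, had 5 regions. The CpG-rich promoter region (chr2:180334448-180334990) was open in MES, HB and HE, with sites of 700, 1000 and 900 bp. A region at -12.6 kb (chr2:180347020-180347547) was open in the same stages and also in MAC, with sites of 600, 800, 800 and 500 bp. It was the only Gata5 region open after HE. Regions at -16.3 kb (chr2:180350698-180351197) and -20.2 kb (chr2:180354648-180355147) were open in HB only and held 3 GATA sequences each. The region at -7.8 kb (chr2:180342270-180342769) was open in HE only, with a site of 1100 bp. The 4 upstream regions each held at least 1 GATA sequence and the promoter region none.

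Gata6, on the plus strand of chromosome 18 at 11052510 to 11085636, had 10 regions. Its promoter carried sites of 700, 1200 and 1800 bp in MES, HB and HE. The HE site reached further into the gene, so that its window (chr18:11052734-11053233) was not merged with that of MES and HB (chr18:11052261-11052807). The HE window held 5 GATA sequences and that of MES and HB none. The deposited sites of MES and HB also overlapped the HE window, so this contrast depends on where the windows were centred. Beyond the promoter, MES had no further site. HB had sites in 5 further regions, of which those at +25.7 kb (chr18:11077961-11078483, in an intron) and +44.7 kb (chr18:11096884-11097510, beyond the gene) were also open in HE. Those at -12.2 kb (chr18:11040061-11040560), -4.1 kb (chr18:11048111-11048610) and +56.7 kb (chr18:11108911-11109410) were open in HB only, the last of them with a site of 300 bp that was wider than 0.202% of the HB list.

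A region in a coding exon of Gata6 at +6.7 kb (chr18:11058934-11059433) was open in HE only, with a site of 600 bp. No site was listed in HP. A region at +77.2 kb (chr18:11129434-11129971) was open in HE and MAC and one at +94.2 kb (chr18:11146472-11146971) in MAC only, with sites of 300 and 500 bp in MAC. Gata6 had no other protein-coding gene within 233.9 kb on either side, so no region within 100 kb was given to another gene. No region of Gata6 was open in more than 2 stages, whereas its promoter intervals in MES, HB and HE overlapped.

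**Figure D4:**
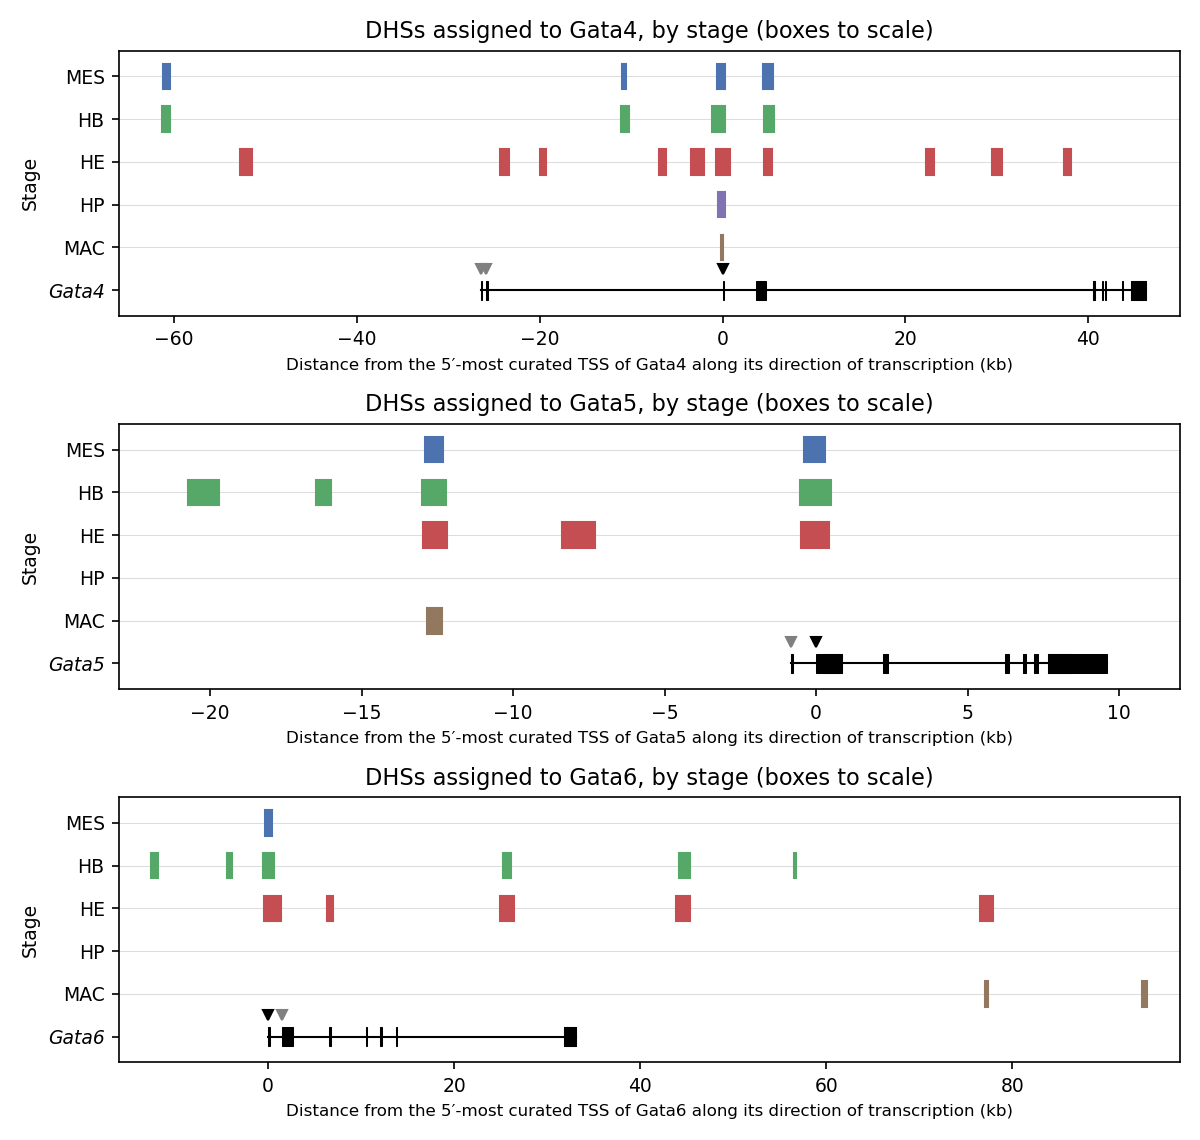
DHSs assigned to Gata4, Gata5 and Gata6 (panels) in the 5 lists (rows), drawn to scale by distance from the 5′-most curated TSS in kb, with exons as black boxes, curated TSS as black and predicted TSS as grey triangles. Sites are concentrated in MES, HB and HE, with 10 Gata4 sites in HE, and HP holds a single site, at the Gata4 promoter.

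Zfpm1, the gene of the GATA1 cofactor FOG1, lies on the plus strand of chromosome 8 at 122281856 to 122337862 and had the most sites of the 8 genes, at 8, 11, 12, 10 and 4 from MES to MAC. From MES to HP, between 99.6% and 99.9% of protein-coding genes had fewer sites, and in MAC 86.7%. The sites covered 5.7, 10, 17.3, 8.3 and 3.2 kb from MES to MAC. They fell into 22 regions, of which 2 were open in all stages, 1 in 4, 2 in 3, 8 in 2 and 9 in 1. The promoter region (chr8:122281074-122281894) was CpG-rich and open throughout, with sites of 1300, 1500, 1600, 1500 and 1400 bp from MES to MAC. At each stage this site was wider than 74.8% to 98% of its list.

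Inside Zfpm1, an intronic region at +12.3 kb (chr8:122294125-122294723) was open in all 5 stages, with sites of 1100, 1300, 1300, 1100 and 500 bp from MES to MAC. The region at +51.2 kb (chr8:122332974-122333674) was open in all but HP, with narrow sites of 300 to 800 bp. The region at +22.1 kb (chr8:122303993-122304574) was open in MES, HB and HP and not in HE. The region at +31.6 kb (chr8:122313243-122314173) was open in HB, HE and HP, with sites of 900, 2800 and 900 bp. The HE site was wider than 99.9% of the HE list, and the sequence shown for Zfpm1 +31.6 kb holds 3 GATA sequences in 150 bases.

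Of the Zfpm1 regions open in 1 stage, those nearest the TSS were at +3.8 kb for MES (chr8:122285645-122286144), +14.5 kb for HB (chr8:122296375-122296874), +2.1 kb for HE (chr8:122284024-122284523) and +39.7 kb for HP (chr8:122321593-122322092). No Zfpm1 region was open in MAC only. The HB site at +14.5 kb was 200 bp wide and the region held 5 GATA sequences. The HP region at +39.7 kb was overlapped by the deposited intervals of HB and HE. The HE site of 1700 bp behind the region at +2.1 kb also overlapped sites of HB and HP, and its window alone did not, so both single-stage calls depend on the windows. GATA sequences were found in 13 of the 22 Zfpm1 regions, near the share of all regions (50.6%, or 58.1% of those over 2 kb from a curated TSS). None of the PU.1 sequence GAGGAAGT (8.25% of all regions) or the AP-1 sequences TGAGTCA and TGACTCA (17.9% of all) was found in any of them. MAC-only regions, which Zfpm1 lacked, were 31% of all regions.

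**Figure D5:**
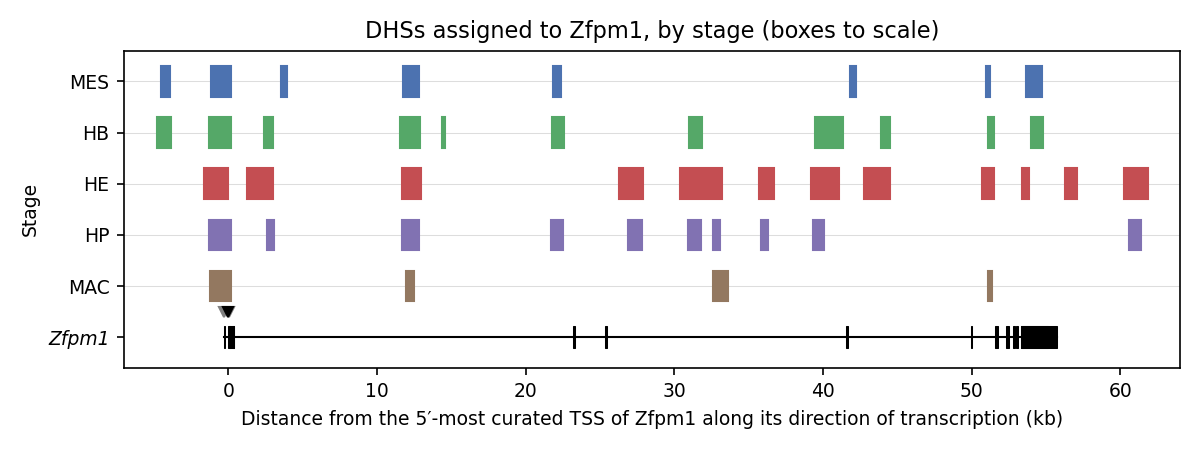
DHSs assigned to Zfpm1 in the 5 lists (rows), drawn to scale by distance from its 5′-most curated TSS in kb, with exons as black boxes and curated (black) and predicted (grey) TSS as triangles. Sites at the promoter and at +12.3 kb are present in all 5 lists, and MAC has 4 sites against 8 to 12 in the other lists.

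Promoters of the corepressors that FOG proteins recruit were listed at most stages. Of 8 such genes (Mta1, Mta2, Chd4, Hdac1, Hdac2, Rbbp4, Ctbp1 and Ctbp2), 7 had a promoter site in MES, HB, HP and MAC and all 8 in HE, against 48.6% to 59.8% of all genes. The 7 were open in all 5 lists, as were 42% of all genes. Mta1 was the gene that differed, with a promoter site in HE only, the same promoter pattern as Zfpm2.

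Zfpm2, the gene of FOG2, which works with GATA4 in the heart, spans 450 kb of the plus strand of chromosome 15 from 40655042. It had no site in MES or HB, whereas HE had 8, HP 1 and MAC 5. The CpG-rich promoter region (chr15:40655292-40655791) was open in HE only, with a site of 1700 bp that was wider than 82.6% of the HE list. The other 10 regions were all in introns, 106.8 to 373.5 kb from the TSS. In HE only they were open at +106.8 kb (chr15:40761642-40762141), +127.0 kb (chr15:40781842-40782341), +299.0 kb (chr15:40953792-40954291) and +373.5 kb (chr15:41028292-41028791).

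In MAC only, Zfpm2 regions were open at +137.3 kb (chr15:40792086-40792585), +290.9 kb (chr15:40945736-40946235) and +294.3 kb (chr15:40949136-40949635), with sites of 400 to 500 bp. Those at +300.1 kb (chr15:40954836-40955491) and +303.5 kb (chr15:40958136-40958891) were open in HE and MAC, and that at +169.8 kb (chr15:40824575-40825141) in HE and HP. Zfpm2 thus had 5 sites in MAC without a promoter site there, and 4 of them lay within a stretch from +290.9 to +303.5 kb. GATA sequences were found in 9 of its 11 regions, against 58.1% of all regions over 2 kb from a curated TSS and 50.6% of all regions. The HE-only region at +127.0 kb held the E-box and GATA sequence shown for Zfpm2 +127.0 kb, with 9 bases between them, and 1 copy of GAGGAAGT.

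Taking the members' regions together, a GATA sequence stood in the central 500 bp of 40 of 70 (57.1%), against 50.6% of 68842 merged regions outside the mitochondrial chromosome. Over 2 kb from a curated TSS the share was 37 of 61 (60.7%), against 58.1% of all such regions. The members' share was thus close to that of all regions. In the central 200 bp it was 35.7%, against 25.5%. An E-box 7 to 9 bases from a GATA sequence was found in 4 of the 70 regions, the known Gata2 stretch among them (5.71%, against 1.73%). In the central 200 bp this was 1 of the 70 (1.43%, against 0.786%), so the count depends on the width searched. Those shown for Gata2, Gata4 and Zfpm2 were open in HE, HP and MAC, in MES and HB, and in HE only.

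For other letters the members' share was above that of all regions in some cases and below it in others. The RUNX sequence TGTGGT was found in 34.3% of them (33.2% of all), the ETS sequences CAGGAAG and CCGGAAG in 30% (34.4% of all) and the TEAD sequence CATTCC in 30% (26.7% of all). The AP-1 sequences were found in 8.57% (17.9% of all) and GAGGAAGT in 4.29% (8.25% of all). MAC-only regions were 5.71% of the members' regions and 31% of all, and the part of this in the shares was not tested. A match is a description of letters in the window and not a binding site. CpG-rich regions were 14 of 70 (20%, against 18.2% of all).

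Genes with the most similar numbers of sites per 10000 sites of each list were sought among all protein-coding genes for the 7 members with 10 or more sites, by Euclidean distance over the 5 lists, and are given for 5 of them. For Gata4 they were Tenm2 (0.55), Has2 (0.69) and Lhfp (0.82), for Gata5 Dusp26 (0.30), Eya2 and Fgf3 (0.40 each), and for Gata6 Mrpl23 and Tbx5 (0.61 each) and Tln2 (0.68). Zfpm1 had no close match, with Smad6 at 1.31, Shroom3 at 1.74 and Scarb1 at 1.89. Zfpm2 was nearest to Rfx8 (0.53), Akap6 and Mpzl1 (0.73 each). No gene matched the profile of any of these 5 members exactly, and the distance is a description.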

How the data were processed

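DNaseI-seq was carried out on 5 populations, 1 sample each. As the study's methods describe, the authors used CutAdapt for trimming, Bowtie for alignment to mm10 (unique reads only), Picard against duplicates and DFilter, in bins of 100 bp, for the sites. The submitters' processing notes also name HOMER. No versions are given in the sources used here. The deposited values are positions in base pairs with no other value, each interval a multiple of 100 bp long, so depth is unknown and no count test applies. How the MAC replicates were combined is not given in the sources used here.

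Sites were read with Python 3.11.15 and numpy 2.4.6 against the RefSeq annotation of GRCm38.p6. The nearest gene was the protein-coding gene whose body was closest to the middle of a site, with ties broken by TSS distance. Assignment and merging were tested on simulated sites. The study's rule for merging (500 bp windows with a minimum overlap) was applied with the middle of an interval in place of the summit. The E-box and GATA search allowed 7 to 9 bases between them, on both strands. All 8 genes and every region are described, except that for Zfpm1 the promoter, regions open in 3 or more stages and the nearest region of each single stage are. The members, gene lists and rules were chosen with earlier results of these data known. Alternatives changed the promoter reach, TSS set, nearest-gene rule, distal reach, site width, merging and letters searched. No difference between stages was tested, since n = 1 per stage. A sequence of Zfpm1 and the genes most like Gata2 and Gata3 are not reported here.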

Additional observations from a re-analysis of the deposited data

How the results depend on the processing

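With 1 list per stage, counts were compared by whether an alternative moved them by over 1.5 times. Of 104 comparisons 72 stayed within that limit, among them every one that changed the promoter reach to 500 bp or 2 kb, the TSS set, the nearest-gene rule to distance from the TSS, the distal reach to 50 kb, or that merged deposited intervals. Whatever the nearest gene, the members had 48, 69, 82, 38 and 45 sites from MES to MAC and 134 regions, 67 of them open in 1 stage and 19 in all 5, because neighbouring genes then add their sites. With the narrower sites of each list, those under its median width, left out, there were 9, 16, 26, 7 and 7 sites and 37 regions (22 open in 1 stage, 2 in all 5, 14 in HE only, 20 with a GATA sequence), and 3 members had a promoter site in MES and 2 in HP. With every list reduced to its widest sites, as many as the HP list holds, HE had 26 and MAC 5 sites, and there were 44 regions (18 open in 1 stage, 1 in all 5, 11 in HE only, 26 with a GATA sequence). Both alternatives keep fewer sites by construction. Windows merged at an overlap of 250 bp gave 3 regions open in all 5 stages. The letters AGATAA alone were found in 20 regions, and any GATA sequence in the central 200 bp in 25. Without the HE list, an alternative chosen after seeing the data, 46 regions were left and 25 were open in 1 stage. Comparing deposited intervals in place of windows, also chosen after seeing the data, left the numbers of regions kept from stage to stage within 1.5 times. No paired analysis was possible because each stage has 1 sample. Narrow sites limit the single-stage calls named for Gata2, Gata6 and Zfpm1, and what depth could show is unknown.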
